A study of Mus musculus with 3 samples.

Results

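Neutrophils carry their antimicrobial proteins in granules that are filled at successive stages of maturation in bone marrow, and 9 genes for such proteins are described here, out of 34099 genes in each matrix. They were found by symbol, and each symbol named a single row. Elane (neutrophil elastase, ENSMUSG00000020125), Mpo (myeloperoxidase, ENSMUSG00000009350), Prtn3 (proteinase 3, ENSMUSG00000057729) and Ctsg (cathepsin G, ENSMUSG00000040314) encode contents of azurophil granules. Ltf (lactotransferrin, ENSMUSG00000032496), Camp (the cathelicidin precursor, ENSMUSG00000038357) and Ngp (neutrophilic granule protein, ENSMUSG00000032484) encode contents of specific granules. Fcnb (ficolin B, ENSMUSG00000026835) encodes a pattern-recognition lectin of immature myeloid cells, and Lcn2 (lipocalin 2, ENSMUSG00000026822) a protein that binds iron-carrying siderophores. The cells came from mouse liver after an overdose of paracetamol (APAP), a drug that in excess kills hepatocytes. Every mouse, controls included, received 500 mg/kg of APAP. At 6 h the animals were infused with PBS, with native mesenchymal stromal cells (MSCs), or with MSCs engineered to carry bispecific polyvalent peptides, and livers were taken after 4 days. Each group is 1 mouse and 1 droplet library of messenger RNA 3′ ends counted with unique molecular identifiers (UMIs), and no uninjured liver was analysed here. Differences between libraries therefore cannot be told apart from differences between mice. No test was possible, and every interval is a 95% interval for counting error only.

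Azurophil proteases are transcribed in promyelocytes, specific granule proteins in myelocytes and metamyelocytes, and the transcripts of both largely cease before neutrophils leave the marrow, while the proteins stay in the granules. A mature neutrophil in tissue is thus usually poor in these messenger RNAs although it holds the proteins. Lcn2 differs in that epithelium and hepatocytes also make it in the acute phase response, under interleukin 1, interleukin 6 and related signals.

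The 300-base promoter sequences of RefSeq (build GRCm38.p6, from 250 bases before to 50 bases after the start of the gene) were available for all 9 genes. They were searched on both strands for AGGAAGT, a core recognised by ETS factors such as PU.1, and for TTNNGCAAT, a C/EBP site; both motifs were chosen after the sequences had been seen, and no promoter of the 9 held both. AGGAAGT occurred in the promoters of Elane, Mpo, Prtn3, Ctsg and Fcnb, in none of Ltf, Camp and Ngp, and in 9.35% of all 32851 promoters of that length. The stretches below show it in capitals, on the strand of the gene, with up to 30 bases on either side; all lie upstream of the start of the gene. They are at chr10:79886198-79886264 (plus strand) for Elane, chr11:87793534-87793597 (plus) for Mpo, chr10:79879543-79879609 (plus) for Prtn3, chr14:56102744-56102810 (minus) for Ctsg and chr2:28084945-28085011 (minus) for Fcnb.
Elane: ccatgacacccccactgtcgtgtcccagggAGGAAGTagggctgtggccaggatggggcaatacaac
Mpo: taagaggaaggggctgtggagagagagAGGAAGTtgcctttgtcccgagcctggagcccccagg
Prtn3: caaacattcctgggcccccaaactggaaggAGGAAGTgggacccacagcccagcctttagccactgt
Ctsg: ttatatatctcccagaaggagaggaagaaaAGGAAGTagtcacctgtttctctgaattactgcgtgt
Fcnb: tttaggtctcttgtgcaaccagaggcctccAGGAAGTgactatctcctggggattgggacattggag

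TTNNGCAAT occurred in Ltf and Ngp and in 2.18% of all promoters. It is on the strand of the gene in Ltf (chr9:111019187-111019255, plus) and on the opposite strand in Ngp (chr9:110419639-110419707, plus), where the capitals show its reverse complement. Neither motif occurred in the windows of Camp and Lcn2. A match of letters is a description and does not show that a factor binds there.
Ltf: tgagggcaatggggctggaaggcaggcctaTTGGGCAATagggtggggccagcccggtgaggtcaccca
Ngp: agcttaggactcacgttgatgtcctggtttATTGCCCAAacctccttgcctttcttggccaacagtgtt

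Of 33246 barcodes, 27845 were kept as cells, 9537 from PBS, 9179 from native MSC and 9129 from engineered MSC, with medians of 5783, 5673 and 3667 UMIs. Total UMIs were 82247448, 84950721 and 62564254, and 25 to 35 kept barcodes were shared by each pair of libraries. Clusters were made without the 9 genes and named from marker lists, so each class is called "like" a type, and the neutrophil-like class comprised 612 PBS, 2450 native MSC and 242 engineered MSC cells. At least 1 UMI of S100a8, a defining neutrophil transcript, was present in 84.6% of those of PBS. Median UMIs in this class were 2139, 2812 and 2672. The libraries filled its subclusters unequally: 565 PBS cells lay in N2, 1242 native MSC cells in N0 and 1002 in N1, and 109 engineered MSC cells in N3. Macrophage genes (Mmp12, Cd5l) led N2, and interferon-induced genes (Ifit3, Ifit1) led N3. Transcripts of hepatocytes (10 genes, Alb and Apoa1 among them) made up 0.0591% of UMIs in PBS, 0.166% in native MSC and 1.07% in engineered MSC neutrophil-like cells. All class comparisons below are between these unlike mixtures, and the part of free RNA in them was not tested.

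Elane, Mpo and Ctsg were nearly absent from neutrophil-like cells and concentrated in a few proliferating cells, while Prtn3 was found more widely and is taken up again further on. Within the cycling-cell-like cluster, subcluster C6 comprised 29 cells: 19 in native MSC, 8 in engineered MSC and 2 in PBS. S100a9, Prss34, S100a8, Ly6c2 and Ms4a3 were among its leading genes. In C6, Elane had 46 UMIs in PBS, 3235 in native MSC and 102 in engineered MSC. These were 88.5%, 95.6% and 78.5% of all Elane UMIs in the kept cells of each library. Mpo, whose product makes hypochlorous acid, had 6, 982 and 66 UMIs in C6 in the same order, and Ctsg, a serine protease, had 7, 1877 and 126. In PBS these were 6 of 14 Mpo and 7 of 18 Ctsg UMIs. In native MSC, C6 held 96.3% of Mpo and 95.4% of Ctsg. The 2450 native MSC neutrophil-like cells had 10 UMIs of Elane, 8 of Mpo and 12 of Ctsg. Neutrophil-like cells of PBS and of engineered MSC had none of these 3 transcripts. For PBS that allows up to 0.490% of 612 cells with a UMI at 3 counts.

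Fcnb, unlike Elane, Mpo and Ctsg, had most of its PBS and native MSC UMIs in monocyte-like cells. It had 48 UMIs in PBS, 367 in native MSC and 38 in engineered MSC. Monocyte-like cells contributed 66.7%, 53.1% and 21.1% of these, and cycling-cell-like cells 2.08%, 34.1% and 68.4%. The level in monocyte-like cells was 6.34 counts per 1000000 UMIs of the class (CPM) in PBS, 14.1 in native MSC and 6.51 in engineered MSC. Native MSC was thus 2.22 times as high as PBS (1.53 to 3.34), and the engineered MSC to PBS ratio was 1.03 (0.408 to 2.27). Neutrophil-like cells had 14 Fcnb UMIs in 5 cells of native MSC and 0 in the other libraries.

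Specific granule transcripts were also concentrated in few cells, part of them neutrophil-like. Neutrophil-like subcluster N5 comprised 0 PBS, 21 native MSC and 5 engineered MSC cells, and its leading genes included Serpinb1a, an inhibitor of neutrophil serine proteases, Olfm4 (olfactomedin 4) and Itgb2l. Ltf, which binds iron, had 1141 UMIs in N5 of native MSC and 169 in N5 of engineered MSC. Camp had 2801 and 419 UMIs there, and Ngp, a cystatin-related protein, 4115 and 447. N5 held 62.8% of the Ltf, 41.8% of the Camp and 51.1% of the Ngp UMIs of native MSC, and 41.2%, 20.5% and 30.5% of those of engineered MSC. Most other Camp UMIs were in C6, with 3690 in native MSC and 1513 in engineered MSC. C6 of PBS had 0 UMIs of Camp and of Ngp.

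In PBS, 1 barcode of 15666 UMIs, placed in the monocyte-like cluster, held nearly the whole specific granule signal. It had 196 UMIs of Ltf, 669 of Camp, 383 of Ngp and 325 of Lcn2, beside 482 of S100a8 and 1 of Retnlg, a gene of mature neutrophils. That was 97.2% of all Camp and 97.2% of all Ngp UMIs of the PBS cells, and 70.5% of Ltf. Without it, the 754 remaining monocyte-like cells of PBS had 5 UMIs of Ltf, 1 of Camp and 0 of Ngp. The 612 neutrophil-like cells of PBS had 44 UMIs of Ltf, 0 of Camp and 2 of Ngp.

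Single cells rich in these transcripts showed which of them occurred together. A cell was called azurophil-rich with at least 10 UMIs of Elane, Mpo and Ctsg together and specific-rich with at least 10 of Ltf, Camp and Ngp together, a limit chosen after the counts had been seen. For the azurophil sum 1 PBS cell and no cell of the other libraries had 5 to 9 UMIs. For the specific sum 33 native MSC cells and 1 engineered MSC cell lay just under the limit, and 15 and 2 had 10 to 19 UMIs. Kept cells rich in azurophil transcripts alone numbered 1 in PBS, 10 in native MSC and 5 in engineered MSC. Those rich in specific transcripts alone numbered 1, 48 and 9, and those rich in both numbered 0, 5 and 0. Specific-rich cells were 0.523% (0.386 to 0.693) of kept cells in native MSC, 0.0986% (0.0451 to 0.187) in engineered MSC and 0.0105% (0.000265 to 0.0584) in PBS. These are not shares of neutrophil-like cells, which numbered 2450 in native MSC, 242 in engineered MSC and 612 in PBS. Specific-rich cells that were neutrophil-like lay in N0 and N5, with 25 and 20 among the 2450 and 1 and 5 among the 242.

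The removal of likely doublets bears on these counts. Barcodes taken out as doublets included 8 azurophil-rich and 2 specific-rich ones in native MSC, and 12 azurophil-rich, 1 rich in both and 6 specific-rich ones in engineered MSC. All barcodes removed as doublets, granule-rich or not, held 94.1% of the Elane and 65.4% of the Camp UMIs of the engineered MSC library. In native MSC they held 5.02% and 5.28%. With them, azurophil-rich barcodes were 18 in native MSC and 17 in engineered MSC, and specific-rich ones 50 and 15. PBS gained none. Whether these barcodes were doublets was not tested, and the 12 azurophil-rich ones of engineered MSC had 8238 to 43838 UMIs, beside 7496 to 39531 in the 5 kept cells.

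**Figure D1:**
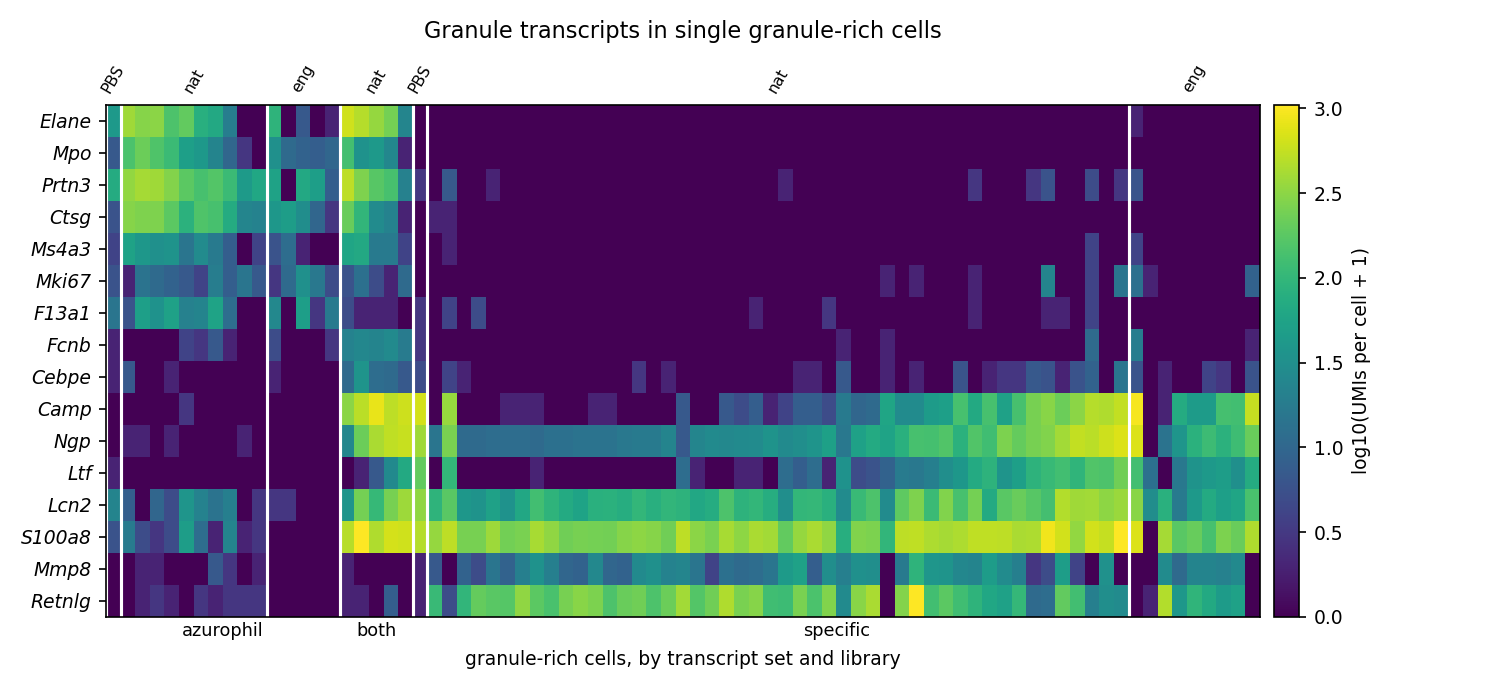
Each column is 1 of 79 kept granule-rich cells and each row a gene; colour is log10(UMIs per cell + 1). Columns are grouped by transcript set (azurophil, both, specific) and, within a set, by library (PBS, nat = native MSC, eng = engineered MSC), ordered by falling azurophil and then rising specific sums; the 5 cells of the middle block, all of native MSC, carry Elane and Camp together.

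The 16 azurophil-rich cells carried progenitor and monocyte-lineage transcripts and little of later granule genes. Their UMIs had a median of 30782 (7496 to 47528), above the 7133.5 of specific-rich cells. Median UMIs per cell were 53.5 for Elane, 16 for Mpo, 93 for Prtn3 and 59.5 for Ctsg. Ms4a3, a gene of granulocyte and monocyte progenitors, was found in 13 of the 16 cells, the progenitor factor Myb in 15, and Ly6c2 and F13a1, which are also monocyte genes, in 13 each. Camp was found in 1 cell with at most 2 UMIs, Ltf in 1 with 1 UMI, and Ngp in 4 with at most 1. All 16 had the proliferation gene Mki67. Lcn2 reached 37 UMIs in the 10 cells of native MSC and 2 in the 5 of engineered MSC, and S100a8 at most 47. One cell of engineered MSC differed, with 47 UMIs of Ctsg and 10 of Mpo but 0 of Elane and Prtn3, beside 502 of Prss34 and 180 of Mcpt8, which are proteases of basophils and mast cells.

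The 5 cells rich in both sets, all of native MSC and all in C6, carried Fcnb, Cebpe and S100a8 beside both kinds of granule transcript. By falling Elane, their counts of it were 641, 477, 348, 241 and 23 UMIs, and their Camp counts 313, 507, 827, 521 and 608. In the same cells Ngp had 24, 216, 431, 533 and 576 UMIs and Ltf 0, 1, 6, 26 and 68. The cells had 28554, 36821, 18087, 18627 and 14458 UMIs in the same order, so the counts are not on 1 scale; the last cell was the lowest in Elane and the highest in Ngp and Ltf although it was the shallowest. Each of the 5 had 17 to 27 UMIs of Fcnb, against 0 to 6 in azurophil-rich cells. Cebpe, the transcription factor of specific granule genes, had 6 to 36 UMIs in them and S100a8 had 455 to 1036. F13a1 had at most 4, Mmp8 (neutrophil collagenase) at most 1 and Retnlg at most 7. Lcn2 ranged from 36 to 380 UMIs, and all 5 cells had Mki67.

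In the 58 specific-rich cells, which by definition had under 10 UMIs of Elane, Mpo and Ctsg together, Elane was found in 1 of them, Ctsg in 2 and Mpo in 0. Median UMIs per cell were 11 for Ltf, 8 for Camp, 36.5 for Ngp, 91.5 for Lcn2 and 343.5 for S100a8. Late genes were present, with Retnlg in 55 cells (median 144.5), Mmp8 in 51 (median 17.5) and Cxcr2, the chemokine receptor of mature neutrophils, in 48, whereas Mki67 was found in 9. In native MSC, 20 of these cells lay in N5, 25 in N0 and 3 in C6. The 25 cells of N0 had 6 to 53 UMIs of Ngp but at most 9 of Camp and 11 of Ltf, with a median of 217 of Retnlg. The 20 of N5 had 15 to 619 of Ngp, 3 to 487 of Camp and 5 to 156 of Ltf, with a median of 120.5 of Retnlg. Ngp was thus found at low counts in cells with little Camp. In engineered MSC, 5 lay in N5, 2 in C6, 1 in N0 and 1 in the cholangiocyte-like cluster, the last with 12 UMIs of Ltf and 0 of Camp, Ngp and S100a8.

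The share of neutrophil-like cells with any UMI of a set followed the same sequence in each library, lowest for azurophil and highest for Lcn2. At full depth, Elane, Mpo, Prtn3 or Ctsg was found in 1.80% (0.901 to 3.19) of PBS, 12.2% (10.9 to 13.6) of native MSC and 6.61% (3.83 to 10.5) of engineered MSC cells. With each cell thinned to 1000 UMIs these shares were 0.885% (0.288 to 2.05), 4.54% (3.73 to 5.46) and 1.70% (0.466 to 4.30), with 47, 92 and 7 shallower cells left out. Prtn3 accounted for all of these cells in PBS and engineered MSC and for 278 of 299 in native MSC. Ltf, Camp or Ngp was found in 5.88% (4.15 to 8.05), 17.1% (15.7 to 18.7) and 9.09% (5.79 to 13.4) of cells, and after thinning in 3.36% (2.04 to 5.20), 8.48% (7.39 to 9.68) and 4.68% (2.36 to 8.22). Native MSC was above PBS for both sets at 1000 UMIs, while the intervals of engineered MSC and PBS overlapped. At 500 UMIs a cell the azurophil shares were 0.817% (0.266 to 1.90) in PBS and 2.08% (1.55 to 2.73) in native MSC, and these intervals overlapped; the specific shares, 2.29% (1.26 to 3.81) and 5.18% (4.34 to 6.14), did not.

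Lcn2 was found in 38.7% (34.8 to 42.7) of PBS, 69.96% (68.1 to 71.8) of native MSC and 49.6% (43.1 to 56.1) of engineered MSC neutrophil-like cells. After thinning the shares were 31.9% (28.0 to 35.9), 61.1% (59.1 to 63.1) and 37.02% (30.8 to 43.5), so native MSC stood above the other libraries and the intervals of PBS and engineered MSC overlapped. B-cell-like cells, which should lack Lcn2, had it after thinning in 1.07% (0.394 to 2.31), 9.09% (6.26 to 12.7) and 1.35% (0.835 to 2.05), at median depths of 2229, 2308 and 2789 UMIs. In native MSC 86.9% of neutrophil-like cells with a specific granule UMI also had Lcn2, and these were 21.3% of the Lcn2-positive cells.

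**Figure D2:**
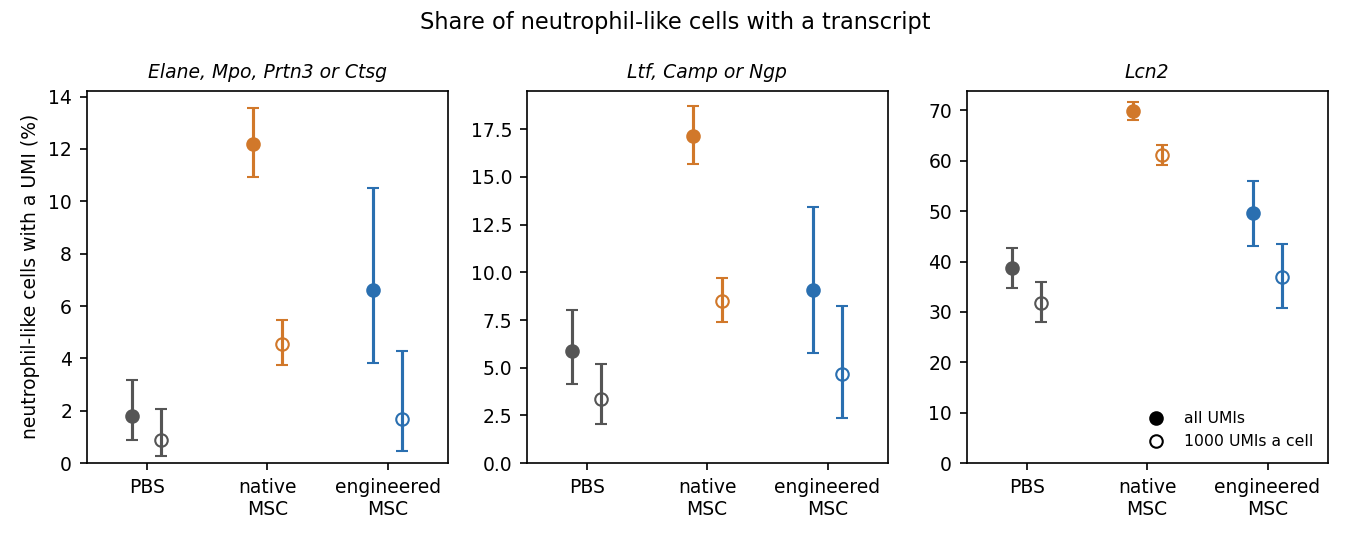
Points are percentages of neutrophil-like cells with at least 1 UMI of the genes named above each panel, with exact binomial 95% intervals, for PBS, native MSC and engineered MSC; filled points use all UMIs and open points 1000 UMIs a cell. The native MSC point is the highest of the 3 in each panel, at 61.1% for Lcn2 after thinning.

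For engineered MSC against PBS, 5 of the 9 genes had at least 20 UMIs in the pair of neutrophil-like classes. All 5 were more than 2-fold higher in engineered MSC and 0 lower, against 8.36% of 6683 genes measured that were higher and 7.35% that were lower. Camp and Ngp, with 0 and 2 UMIs in PBS, reached the minimum only through engineered MSC. These 2 could not have been counted as lower. Ltf was at 264 CPM (227 to 306) in engineered MSC and 32.9 (23.9 to 44.2) in PBS, or 8.04 times as high (5.75 to 11.5). Camp was at 623 CPM in engineered MSC and 0 in PBS, at least 278-fold higher if PBS is set to the floor of 3 counts for the class, with a lower 95% bound of 225 from the counts themselves. Ngp, at 699 CPM beside 1.496, had a ratio of 467 (129 to 3869) on 473 and 2 UMIs. Lcn2, at 2027 CPM (1921 to 2137) beside 858 (809 to 909), was 2.36 times as high (2.18 to 2.56), and Prtn3, at 25.1 beside 8.97, 2.80 times (1.26 to 6.42).

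The specific granule differences rested on the 5 engineered MSC cells of N5, a subcluster singled out after its values were seen. Without it 3 of 4 measured members were more than 2-fold higher (8.28% of genes were) and 1 lower (7.15% were). Ngp again reached the minimum only through engineered MSC. Ltf was then lower in engineered MSC than in PBS, with a ratio of 0.462 (0.207 to 0.932). Camp had 3 UMIs against 0, and Ngp was 26.4 times as high (6.62 to 229.9) on 26 and 2 UMIs. The summed Ltf, Camp and Ngp ratio was 46.1 (34.3 to 63.4) with N5 and 1.72 (1.096 to 2.70) without it. Lcn2 moved less, to a ratio of 2.02 (1.86 to 2.19).

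For native MSC against PBS the same 5 genes were measured and all were more than 2-fold higher and 0 lower, against 11.7% and 7.87% of 10134 genes. Camp and Ngp, with 0 and 2 UMIs in PBS, reached the minimum only through native MSC, with or without N5. The same holds for Prtn3, with 12 UMIs in PBS and 360 in native MSC. Camp and Ngp could not have been counted as lower. Ltf was at 168 CPM (159 to 178), 5.12 times the PBS level (3.79 to 7.08), and Camp at 370 CPM, at least 165-fold higher over the same floor, with a lower 95% bound of 134. Ngp, at 651 CPM, was 435 times as high (120.5 to 3596) on 5094 and 2 UMIs. Lcn2 was at 4754 CPM (4705 to 4802), 5.54 times as high (5.23 to 5.88), and Prtn3 at 46.02 CPM, 5.13 times as high (2.90 to 10.02). Without N5, 4 of the 5 were more than 2-fold higher and 0 lower, against 11.6% and 7.74% of genes, and the direction turned for Ltf, whose ratio was 0.700 (0.501 to 0.998). Camp was then at least 5.66-fold higher over the floor (lower 95% bound 4.52) and Ngp 85.7 times as high (23.7 to 709). The summed specific ratio went from 34.6 (25.9 to 47.3) to 4.77 (3.55 to 6.54), and Lcn2 kept a ratio of 5.05 (4.76 to 5.36).

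Engineered MSC and native MSC differed less in these genes. Of the 5 measured, 0 were more than 2-fold higher (9.69% of 10013 genes were) and 1, Lcn2, was more than 2-fold lower (8.78% were). Its ratio was 0.426 (0.404 to 0.450), or 2.35-fold lower. Camp was 1.68 times as high (1.52 to 1.87) and Ltf 1.57 times (1.34 to 1.84), while the Ngp ratio of 1.07 had an interval of 0.975 to 1.18 that includes equality. Prtn3 was lower, with a ratio of 0.546 (0.314 to 0.886). Without N5, 0 of 5 were more than 2-fold higher (9.66% of genes were) and 3, namely Camp, Ngp and Lcn2, lower (9.04% were). Camp then reached the minimum only through native MSC, and the interval of its ratio includes equality. The specific granule ratios were then all under 1: 0.359 (0.0728 to 1.08) for Camp, 0.660 (0.311 to 1.24) for Ltf and 0.309 (0.201 to 0.455) for Ngp. The 3 comparisons share libraries in pairs and are not independent.

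**Figure D3:**
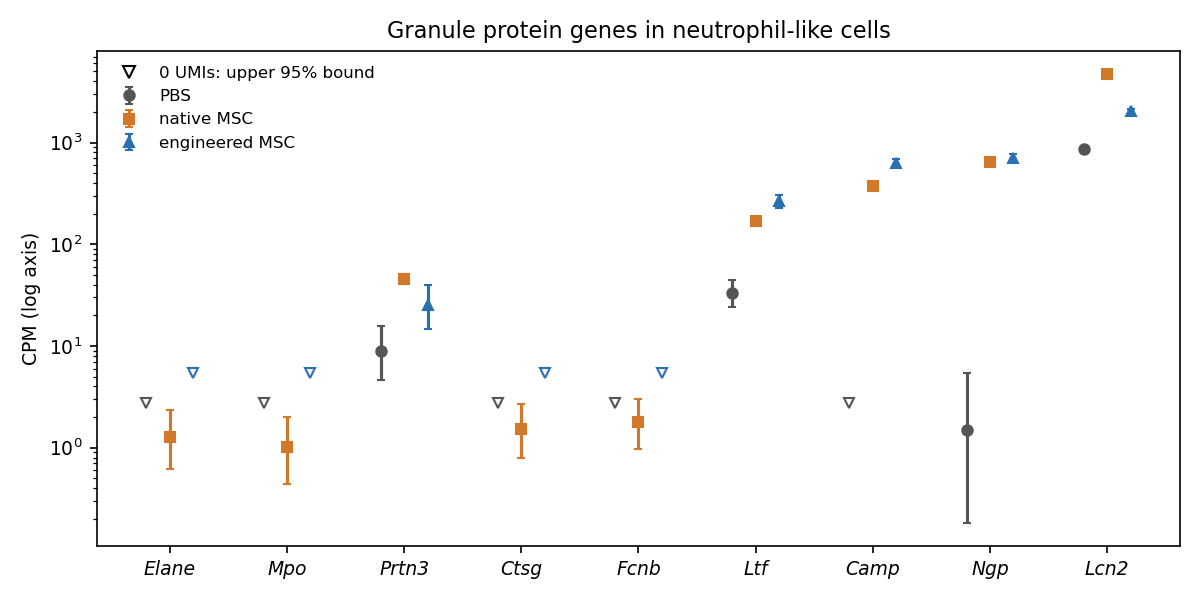
Levels of the 9 genes in neutrophil-like cells, in CPM on a log axis, with exact Poisson 95% intervals for PBS, native MSC and engineered MSC; open triangles mark 0 UMIs at the upper bound. Camp lies at 0 in PBS and at 370 and 623 CPM in native and engineered MSC, and Lcn2 is highest in native MSC.

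Lcn2 varied with neutrophil subcluster as well as with library. In N0, led by Prok2, Stfa2, Ly6g and Retnlg, it was at 3224 CPM in the 14 PBS cells, 6385 in the 1242 native MSC cells and 4791 in the 43 engineered MSC cells. In N1, whose leading genes include Ptpn22 and Nr4a2, it was at 63.1 CPM in 17 PBS, 452 in 1002 native MSC and 161 in 57 engineered MSC cells. N5 had 22230 CPM in native MSC and 12105 in engineered MSC. In N2, where most PBS cells lay, the levels were 816 CPM in PBS, 916 in native MSC and 1006 in engineered MSC. Within N0, native MSC was 1.98 times PBS (1.59 to 2.49) and engineered MSC 1.49 times PBS (1.18 to 1.89). In N3, which had 109 of the 242 engineered MSC cells, Lcn2 was at 1377 CPM (1012 to 1831) in 16 PBS cells, 6184 (5772 to 6617) in 35 native MSC cells and 929 (821 to 1047) in engineered MSC. Engineered MSC was thus above PBS in N0 and below it, with slightly overlapping intervals, in N3.

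Some other granule genes were also higher in neutrophil-like cells of the MSC libraries, and few granulocyte transcription factors were. Of 15 measured genes for other specific, gelatinase and secretory granule proteins, 3 were more than 2-fold higher in engineered MSC than in PBS and 0 lower, against 8.36% and 7.35% of all genes, with a median log2 ratio of 0.20 against -0.018. They were Mmp8 at 6.00 times (4.94 to 7.32), Cd177, a surface protein of neutrophils, at 8.40 times (4.42 to 17.3), and the chitinase-like Chil3 at 2.40 times (1.78 to 3.24). In native MSC 6 of 16 were more than 2-fold higher than in PBS and 0 lower, against 11.7% and 7.87% of all genes, with a median of 0.51 against 0.012. Among them were Cd177 at 15.97 times (9.11 to 31.0) and Olfm4 at 7.40 times (3.55 to 18.6). Both reached the minimum count only through native MSC. These list ratios were not repeated without N5. With the libraries pooled, N5 had 701 UMIs of Mmp8, 239 of Cd177, 573 of Chil3 and 165 of Olfm4 in its 26 cells. Of 6 measured granulocyte transcription factors, 1 was more than 2-fold higher in engineered MSC, Cebpa at 2.60 times (1.45 to 4.76), and 0 in native MSC, where Cebpe was at 1.99 times (1.21 to 3.49). The shares of all genes were again 8.36% and 11.7%, so that 1 of 6 is near the background. Runx1, the factor with the bound furthest from equality, was below PBS, by less than 2-fold. It was at 0.575 times (0.492 to 0.670) in engineered MSC and 0.718 times (0.663 to 0.779) in native MSC. Cebpa is also a hepatocyte gene, and the part of free RNA in its ratio was not tested. All 10 hepatocyte transcripts, listed to follow free RNA, were more than 2-fold higher in engineered MSC than in PBS, against 8.36% of all genes.

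Of 5 measured genes that process, pack or inhibit the granule proteases, 2 were more than 2-fold higher in engineered MSC than in PBS and 0 lower, against 8.36% and 7.35% of all genes: Serpinb1a at 3.46 times (1.35 to 9.51) and Serpina1c, a hepatocyte antitrypsin gene, at 25.9 times (17.0 to 41.6). Serpinb1a led N5, where the 5 engineered MSC cells had 1, 8, 2, 0 and 1 UMIs of it. With the libraries pooled it had 186 UMIs in N5, beside 91 in N0, 13 in N1 and 9 in N2. Its ratios were not repeated without N5. In native MSC 3 of 6 were higher and 0 lower, against 11.7% and 7.87% of all genes: Serpinb1a at 5.98 times (2.99 to 14.0), Serpina1c at 3.69 times (2.43 to 5.88) and Serpina3n, an acute phase inhibitor, at 10.9 times (1.89 to 439). Serpinb1a and Serpina3n reached the minimum count only through native MSC, and Serpina3n could not have been counted as lower. Srgn, which encodes the proteoglycan serglycin that packs the proteases, was at 0.870 times (0.845 to 0.897) the PBS level in engineered MSC. In native MSC it was at 0.824 times (0.810 to 0.840). Of 5 measured receptors of granule proteins, 0 were more than 2-fold higher in engineered MSC than in PBS, against 8.36% of all genes. Only 1 was more than 2-fold lower, against 7.35% of all genes. It was Lrp1, an uptake receptor for lactoferrin and protease complexes, at 0.426 times (0.2003 to 0.828). In native MSC 2 of 6 receptors were more than 2-fold higher than in PBS, against 11.7% of all genes. They were the formyl peptide receptor Fpr1 at 2.22 times (1.88 to 2.62) and Cd14 at 2.21 times (2.10 to 2.33). Lrp1 was at 0.513 times (0.371 to 0.719) there. Of 14 genes of mature and tissue neutrophils, 2 were higher and 3 lower in engineered MSC, and 2 and 4 in native MSC, against the same shares of all genes, so that 2 of 14 is near the background. Retnlg was 3.65 times (3.47 to 3.83) and 6.48 times (6.23 to 6.74) the PBS level, and the chemokine gene Ccl4 0.325 times (0.290 to 0.364) and 0.249 times (0.235 to 0.263).

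Across 38 clusters of at least 20 cells, pooled over libraries, the genes with the pattern most like the summed specific granule genes were Itgb2l (Pearson r of 0.79 for log2(CPM + 1)), Cebpe (0.71), 9830107B12Rik, Csta2 and Abca13, among 15983 genes. For the azurophil sum they were Gm13986 (0.70), Mmp8, Chil3, Msrb1 and Saa3. That sum includes Prtn3, which had 9682 UMIs in kept native MSC cells, beside 3384 of Elane, 1020 of Mpo and 1967 of Ctsg. Outside cycling-cell-like cells its pattern is mostly that of Prtn3, and Mmp8 had a median of 0 UMIs in azurophil-rich cells. For Fcnb they were Gm30489 (0.78), Inpp5j, Gm49144, F13a1 and Cd177. For Lcn2 they were Mapk13 (0.84), Sgms2 (0.82), B230303A05Rik, S100a8 (0.77) and Hp (0.75), the haptoglobin gene. The clusters share libraries and differ in depth, so these values are descriptions.

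Lcn2 was not limited to neutrophils. In PBS, 13.1% of kept cells had a UMI of it, in native MSC 60.3% and in engineered MSC 8.68%, beside 1.85%, 19.9% and 4.602% of B-cell-like cells at full depth. Neutrophil-like cells held 22.8%, 57.8% and 31.7% of the Lcn2 UMIs of their library, hepatocyte-like cells 12.0%, 19.1% and 29.8%, and monocyte-like cells 33.4%, 13.9% and 11.5%. In PBS the order of levels was neutrophil-like (858 CPM), cholangiocyte-like (761, 685 to 844, in 17 cells), vascular-endothelium-like (574, 487 to 671, in 43 cells), hepatocyte-like (393, 363 to 426), mesothelial-cell-like (369, 313 to 433, in 34 cells) and monocyte-like (334, 318 to 350). The intervals of the first pair of classes overlapped, and that of mesothelial-cell-like cells overlapped those of hepatocyte-like and of monocyte-like cells. The place of hepatocyte-like cells in this order depends on the processing, since their level was 722 CPM with clusters at resolution 2 and 249 with each cell counted alike. The single granule-rich barcode gave 19.3% of the monocyte-like value, which was 270 CPM without it.

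In native MSC the order was neutrophil-like (4754 CPM), hepatocyte-like (1836, 1804 to 1869), then cholangiocyte-like (1478, in 4 cells) and monocyte-like (645, 632 to 658). Erythroid-like cells followed at 265 CPM (247 to 285), of which 425 of 742 UMIs lay in 1 cluster of 33 cells, and cycling-cell-like cells at 257 (245 to 268). Mesothelial-cell-like cells had 247 CPM (209 to 291) and stellate-cell-or-fibroblast-like cells, which form matrix, 152 (128 to 179). In engineered MSC it was neutrophil-like (2027), monocyte-like (406, 371 to 443), cholangiocyte-like (267, 233 to 304), then hepatocyte-like (172, 163 to 182). Cells of other classes were low: macrophage-like cells had 3.85 CPM in PBS, 45.7 in native MSC and 5.32 in engineered MSC, and sinusoidal-endothelium-like cells 3.36, 39.5 and 6.35. Single cells weighed on several classes. In hepatocyte-like cells 6 of 352 cells held at least 50% of the Lcn2 UMIs in PBS, 54 of 835 in native MSC and 10 of 2219 in engineered MSC, and the top cell held 15.1%, 6.34% and 14.6%. One vascular-endothelium-like cell held 55.6% of the 72 UMIs of its class in engineered MSC, and 3 of 43 cells held at least 50% of the 157 UMIs in PBS.

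**Figure D4:**
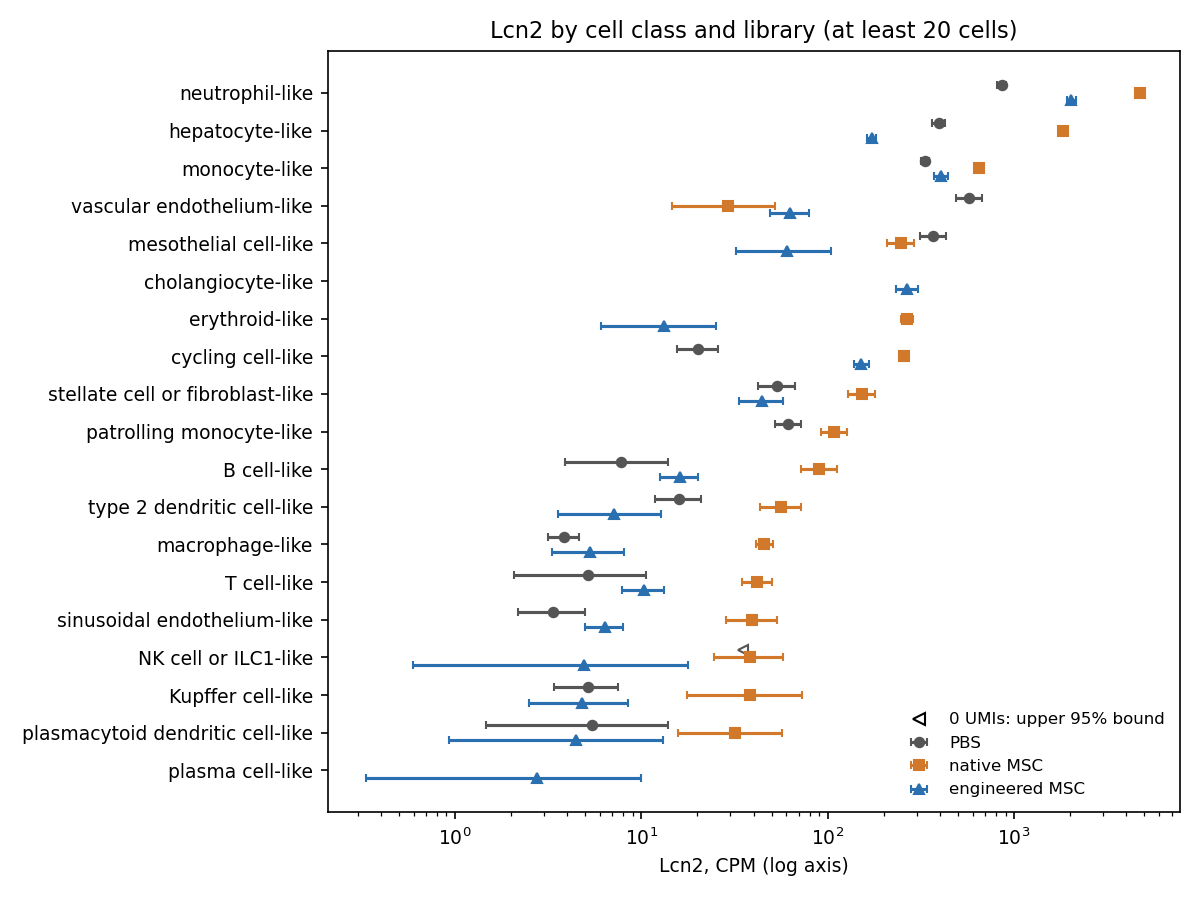
Lcn2 level in CPM (log axis) by cell class, with exact Poisson 95% intervals, for classes with at least 20 cells in the library. Neutrophil-like cells are highest in every library, at 858, 4754 and 2027 CPM, and hepatocyte-like cells reach 1836 CPM in native MSC.

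Most hepatocyte-like Lcn2 lay in 1 cluster. Cluster 8, led by the acute phase genes Saa2, Saa1 and Orm1, had 593 of 603 hepatocyte-like UMIs in PBS, 11767 of 12282 in native MSC and 1148 of 1292 in engineered MSC, in 345, 812 and 141 cells. Its level was 404 CPM (372 to 438) in PBS, 1821 (1788 to 1854) in native MSC and 1026 (968 to 1087) in engineered MSC. Of the members, Lcn2 and Prtn3 were measured in cluster 8 of engineered MSC and PBS and both were more than 2-fold higher, as were 7.27% of 7831 genes (9.82% were lower). In native MSC against PBS these and Elane were measured and all 3 were higher, as were 8.11% of 10128 genes (13.1% were lower). Elane, with 0 UMIs in PBS and 23 in native MSC, reached the minimum count only through native MSC. It could thus only be counted as higher. None of the 3 passed 2-fold between engineered and native MSC, where 7.46% of genes were higher and 4.66% lower. For Lcn2, native MSC was 4.503 times PBS (4.15 to 4.90) and engineered MSC 2.54 times PBS (2.30 to 2.81). Over all hepatocyte-like cells, by contrast, engineered MSC was 2.29-fold lower than PBS, a ratio of 0.437 (0.396 to 0.482). Cluster 6, with 1506 of the 2219 engineered MSC cells and 1 PBS cell, had 17.4 CPM (14.1 to 21.2). After thinning, Lcn2 was found in 16.9% (12.4 to 22.1), 56.4% (52.8 to 60.01) and 35.9% (27.7 to 44.9) of cluster 8 cells, and without thinning in 25.8%, 85.2% and 67.4%, at median depths of 1764, 5448 and 3773 UMIs. At most 91 UMIs of Lcn2 were seen in a hepatocyte-like cell of PBS and 779 in one of native MSC.

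Among 9 measured inducers of Lcn2 and acute phase genes in cluster 8, 6 were more than 2-fold higher in native MSC than in PBS and 0 lower, against 8.11% and 13.1% of all genes. In engineered MSC 4 were higher and 1 lower, against 7.27% and 9.82%. In neutrophil-like cells 6 of 10 were more than 2-fold higher in engineered MSC (8.36% of all genes were) and 6 of 10 in native MSC (11.7% were). Those with bounds furthest from equality were acute phase genes: Saa2, Orm1, Hamp and Saa1 in engineered and Saa2, Saa1, Orm1 and Saa3 in native MSC. No inducing cytokine was among them. Saa2 in neutrophil-like cells reached the minimum count only through the MSC library of each pair and could not have been counted as lower. There Saa2, a hepatocyte transcript, was at 24.7 times (6.16 to 215) in engineered and 56.8 times (15.6 to 470) in native MSC. The part of free RNA in that was not tested.

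The number of Lcn2 UMIs beside those of S100a8, an abundant neutrophil transcript, differed between classes. In neutrophil-like cells there were 10.9 Lcn2 UMIs per 100 of S100a8 in PBS (10.3 to 11.6), 20.2 in native MSC (20.0 to 20.4) and 11.9 in engineered MSC (11.3 to 12.6). In hepatocyte-like cells there were 6030 (3256 to 12639), 939 (887 to 995) and 1254 (1026 to 1548). In monocyte-like cells there were 117 (109 to 126), 67.5 (65.7 to 69.4) and 34.5 (31.1 to 38.3). Cholangiocyte-like cells of engineered MSC had 224 UMIs of Lcn2 with 1 of S100a8. Classes with little Lcn2 were also above the neutrophil value. Macrophage-like cells had 37.0, 45.0 and 56.4 in PBS, native MSC and engineered MSC, and B-cell-like cells 55, 44.4 and 105, the latter on 11, 84 and 77 Lcn2 UMIs. The part of free RNA in any of these was not tested.

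**Figure D5:**
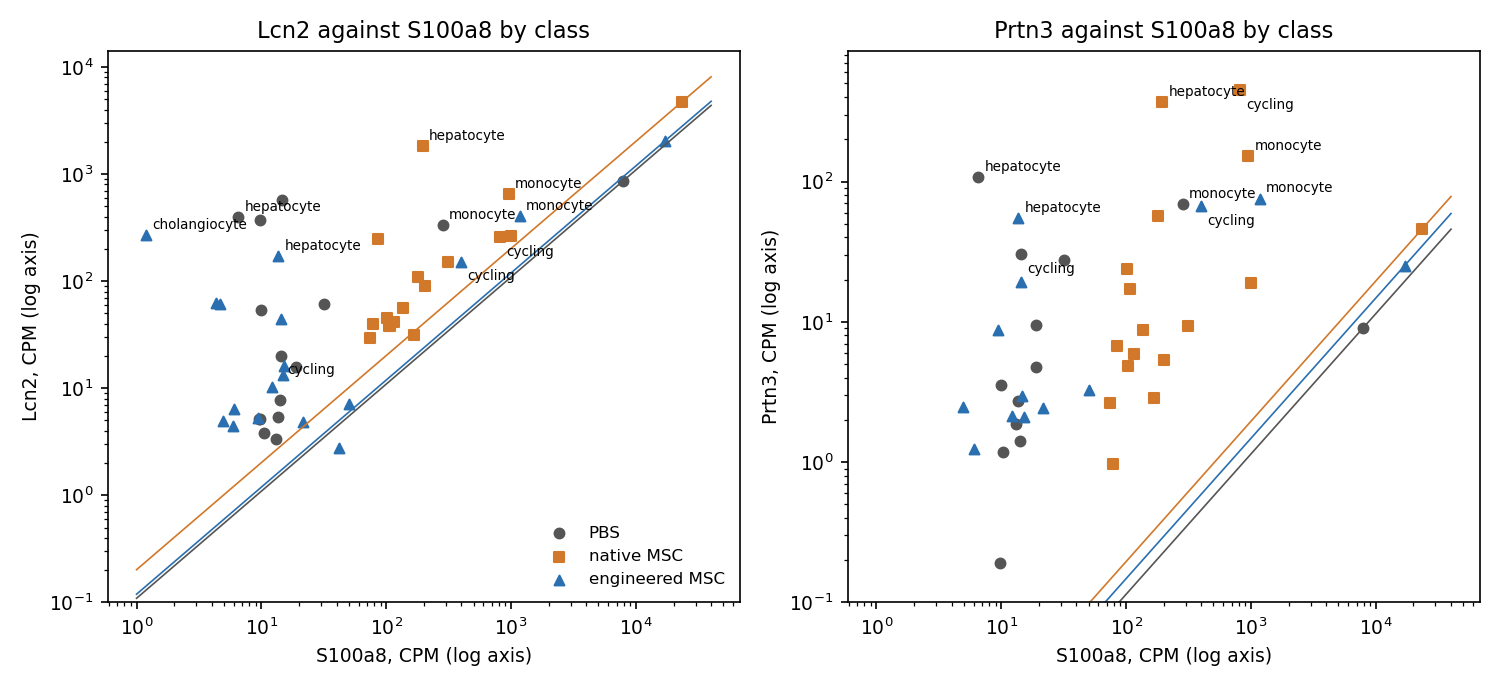
CPM of Lcn2 (left) and Prtn3 (right) against CPM of S100a8 for each named class with UMIs of both genes (at least 20 cells); lines give the ratio in neutrophil-like cells of the same library. Hepatocyte-like points lie above the lines in both panels, with 1836 CPM of Lcn2 and 369 CPM of Prtn3 in native MSC.

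Prtn3 departed from the other azurophil genes. It was found in 5.43% of kept cells in PBS, 27.3% in native MSC and 3.69% in engineered MSC, whereas Elane was found in 0.0839%, 1.73% and 0.361%. In native MSC, cycling-cell-like cells held 34.9% of its UMIs, hepatocyte-like cells 25.5% and monocyte-like cells 21.7%. In cluster 8 Prtn3 had 165, 2452 and 371 UMIs in PBS, native MSC and engineered MSC. The same cells had 0, 23 and 2 UMIs of Elane, 0, 2 and 0 of Mpo and 0, 6 and 0 of Ctsg. Prtn3 levels in cluster 8 were 113 CPM (96.0 to 131), 379 (365 to 395) and 332 (299 to 367), so native MSC was 3.37 times PBS (2.88 to 3.97) and engineered MSC 2.95 times PBS (2.45 to 3.56). After thinning it was found in 14.5% (10.3 to 19.4), 29.5% (26.3 to 32.9) and 25.8% (18.5 to 34.3) of those cells, and without thinning in 27.2%, 71.3% and 68.8%. B-cell-like cells had it after thinning in 0 of 561 in PBS, 0 of 341 in native MSC and 0.256% (0.0699 to 0.655) in engineered MSC.

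Per 100 UMIs of S100a8, native MSC hepatocyte-like cells had 189 UMIs of Prtn3, monocyte-like cells 15.9 and neutrophil-like cells 0.196. There were 107 Prtn3 UMIs per Elane UMI in those hepatocyte-like cells and 1.04 in cycling-cell-like cells. Monocyte-like cells had Prtn3 at 68.8 CPM (61.7 to 76.4) in PBS, 152 (146 to 159) in native MSC and 75.6 (61.05 to 92.7) in engineered MSC. Native MSC was 2.21 times PBS (1.97 to 2.48), and the engineered MSC to PBS ratio of 1.10 (0.865 to 1.39) includes equality. An unnamed cluster of 125 native MSC cells, led by Alox15, Saa3 and Prg4, had 600 UMIs of Prtn3, 447 CPM (412 to 484), with 5 of Elane. Prtn3 overlaps Plppr3 on the opposite strand in the GENCODE M21 annotation of GRCm38, and the strand used in counting is not given in the sources used here. Plppr3 itself had 0, 1 and 0 UMIs in hepatocyte-like cells. Whether the Prtn3 UMIs in them come from the Prtn3 transcript was not tested.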

How the data were processed

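The authors deposited filtered matrices of raw UMI counts per gene and barcode, with no normalization. Per the submitters' processing notes, reads were counted with Cell Ranger 7.1.0 against GRCm39. Per the labels' protocols, liver was dissociated, strained and freed of red cells by lysis. Here, barcodes with at least 200 genes, 500 UMIs and at most 20% mitochondrial UMIs were kept. Doublets were ranked with Scrublet in scanpy 1.11.5 and removed at 0.8% per 1000 barcodes. The 3 libraries were clustered together (2000 variable genes without the 9 genes, 30 components, 15 neighbours, leidenalg 0.10.2, resolution 1). Clusters were named from 26 marker lists, by a mean log2 ratio of at least 0.5 and at least 3 raised markers; 3 of 38 clusters stayed unnamed. Neutrophil-like and cycling-cell-like cells were subclustered at resolution 0.5.

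UMIs were summed by class and library and scaled to CPM. Levels carry exact Poisson intervals, shares Clopper-Pearson intervals and ratios of levels exact binomial intervals given the summed count, all at 95%. Genes needed at least 20 UMIs in a pair to be counted. A count of 0 was given a floor of 3. Free RNA was not subtracted. On simulated counts with 200 changed genes, intervals covered the true ratio for 93.0% of changed genes in engineered MSC against PBS, 95.0% in native MSC against PBS and 97.0% in engineered against native MSC. All genes of the set are named, with up to 4 genes of each list whose interval bound lay furthest from equality and the 5 genes most alike in pattern. Other named genes lead a cluster or mark a stage and were chosen after their values were seen. The genes, lists and markers were chosen with earlier results of these data known. Alternatives were other filters, doublets kept, resolution 2, clustering with the 9 genes, each cell counted alike, other minimum counts and other thinning depths.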

Additional observations from a re-analysis of the deposited data

How the results depend on the processing

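No paired analysis was possible because each group is 1 library and the labels carry no replicate numbers. Ratios below are log2, in the order engineered MSC against PBS, native MSC against PBS, engineered against native MSC, and concern neutrophil-like cells; the cause of each move was not tested unless stated. The specific granule ratio was 5.53, 5.11 and 0.42. Leaving out N5, added after seeing the data, removed the cells with most of these UMIs and gave 0.79, 2.25 and a reversed -1.47. With each cell counted alike it was 4.81, 3.50 and 1.30, and with doublets kept the last was 0.57. The Lcn2 ratio, 1.24, 2.47 and -1.23, was 1.01, 2.34 and -1.32 without N5 and 1.63, 2.75 and -1.12 with doublets kept. The azurophil ratio of engineered against native MSC, which rests on Prtn3, was -0.99 and went to -1.62 with doublets kept. With each cell counted alike the first 2 Lcn2 values were 0.92 and 2.11. Genes past 2-fold numbered 1050, 1984 and 1849. With at least 100 UMIs fewer genes were counted, and 229, 724 and 476 passed. With no minimum more were counted, and 5210, 6731 and 7120 passed.

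Lcn2 in hepatocyte-like cells was 393, 1836 and 172 CPM in PBS, native MSC and engineered MSC. It was 249, 1596 and 98.3 with each cell counted alike, and 722 and 1884 in the first 2 at resolution 2, which named 69 PBS cells in place of 352. In native MSC it was 1789 at the 10% mitochondrial limit and 1742 with doublets kept, and in engineered MSC 146 with no mitochondrial limit. In native MSC macrophage-like cells it was 45.7 CPM, 51.4 with doublets kept, 56.3 at resolution 2 and 53.5 with cells counted alike, which gave 11.3 in place of 5.32 in engineered MSC. In endothelium-like cells it was 36.7 in native and 11.5 in engineered MSC, 82.2 and 14.3 with doublets kept, and 54.1 in native MSC with cells counted alike. Counting removed barcodes, also added later, raised azurophil-rich cells from 10 to 18 in native MSC and from 5 to 17 in engineered MSC, and in the latter cells rich in both from 0 to 1 and specific-rich cells from 9 to 15. Depth limits the small classes: with 242 neutrophil-like cells in engineered MSC, a count of 0 allows up to 1.24% of cells with a UMI, which is no limit on cells that express the gene.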

Other observations

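Cluster 36, a native MSC cluster of 33 cells with haemoglobin genes in the lead, also carried neutrophil genes: Stfa1, Ifitm1 and Retnlg were among its 10 leading genes, and its neutrophil score was 2.75 beside an erythroid score of 4.16. It had 425 UMIs of Lcn2 and 2266 of S100a8, or 18.8 per 100, and 7 of Prtn3. This is close to the 20.2 per 100 of neutrophil-like cells in that library, and whether these barcodes hold cells of both types was not tested.

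The engineered MSC barcode rich in Elane and Camp together was among those removed as doublets. It had 22134 UMIs, with 618 of Elane, 350 of Prtn3, 113 of Ctsg, 293 of Camp, 8 of Ngp, 21 of Fcnb and 0 of Ltf. Its content is like that of the native MSC cell with 641 UMIs of Elane and 313 of Camp, which had 24 of Ngp, 21 of Fcnb and 0 of Ltf.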
